A study of Mus musculus with 28 samples.

Results

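The 38 Hox genes described here were selected by name from the Hoxa, Hoxb, Hoxc and Hoxd clusters, and all of them had a row among the 37583 genes of each deposited RPKM table. RPKM is the number of reads on a gene scaled by the length of the gene and the depth of the library. Hoxa3 had more than 1 row, and the row with the higher mean over the 28 libraries was used. Of the 38 genes, 10 lie in Hoxa, 10 in Hoxb, 9 in Hoxc and 9 in Hoxd. By the paralogue number in their names, 7 are anterior (groups 1 to 3), 15 central (groups 4 to 8) and 16 posterior (groups 9 to 13).

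Hox genes encode homeodomain transcription factors that give cells their position along the head-to-tail axis of the embryo. The genes of a cluster lie in the order in which they are used, from the anterior genes, which are switched on early and near the hindbrain, to the posterior genes, which are switched on late and toward the tail. In embryonic stem cells the clusters are a textbook target of Polycomb repressive complex PRC2, which methylates histone H3 and whose core subunit EED is needed for its activity.

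Total RNA depleted of ribosomal RNA was sequenced from mouse embryonic stem cells (mESCs) of the CJ7 and CCE28 (here CCE) lines and from embryoid bodies (EBs) grown from them for 5 days without LIF. The CJ7 groups were wild type, Eed null, and EloAK754M and EloAK754R edited cells, with 2 libraries each at both stages; EloA encodes Elongin A, a transcription elongation factor, and the edits replace by methionine (K754M) or arginine (K754R) a lysine that the study examined as a target of PRC2. The CCE groups were wild type and EloA null mESCs with 3 libraries each, and 3 pairs of EB libraries. All stem cells were grown on irradiated or mitomycin C treated mouse fibroblast feeders with serum, LIF and both inhibitors of the 2i medium (PD0325901 and CHIR99021), and the mESCs were at passages 15 to 26. The feeders were removed by a plating step before lysis. The labels do not say whether the libraries of a group came from separate cultures or clones, so the p-values measure the spread between these libraries, which may be technical. For the CCE EBs the labels contradict each other: the pair called A here has the genotype EloA null in its title and EloAhet in its table column, and pair B has EloA+/- in its title and EloAnull in its column. No genotype was assigned to either pair.

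Promoters of 22 of the 38 genes were found in RefSeq (build GRCm38.p6), and 4 of them are printed because the largest or most repeated differences below were at these genes. Hoxd13 and Hoxa10 rose in Eed null cells at both stages, Hoxd8 rose in Eed null and in K754R EBs, and Hoxb1 fell in both. Each run is the 250 bases before the transcription start, 5′ to 3′ on the strand of the gene, at chr2:74667975-74668224 (plus strand) for Hoxd13, chr6:52234940-52235189 (minus strand) for Hoxa10, chr2:74704365-74704614 (plus strand) for Hoxd8 and chr11:96365508-96365757 (plus strand) for Hoxb1. Capitals mark each CpG, the C followed by G in which CpG islands are rich.
Hoxd13: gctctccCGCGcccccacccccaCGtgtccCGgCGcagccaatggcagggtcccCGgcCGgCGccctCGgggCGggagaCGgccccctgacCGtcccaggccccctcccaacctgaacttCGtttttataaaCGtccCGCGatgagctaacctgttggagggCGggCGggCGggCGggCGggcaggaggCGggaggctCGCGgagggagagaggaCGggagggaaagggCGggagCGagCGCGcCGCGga
Hoxa10: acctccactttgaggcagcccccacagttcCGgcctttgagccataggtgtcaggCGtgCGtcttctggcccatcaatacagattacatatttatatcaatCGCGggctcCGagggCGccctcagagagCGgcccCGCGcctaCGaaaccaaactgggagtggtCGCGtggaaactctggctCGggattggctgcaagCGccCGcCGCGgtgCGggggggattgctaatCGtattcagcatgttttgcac
Hoxd8: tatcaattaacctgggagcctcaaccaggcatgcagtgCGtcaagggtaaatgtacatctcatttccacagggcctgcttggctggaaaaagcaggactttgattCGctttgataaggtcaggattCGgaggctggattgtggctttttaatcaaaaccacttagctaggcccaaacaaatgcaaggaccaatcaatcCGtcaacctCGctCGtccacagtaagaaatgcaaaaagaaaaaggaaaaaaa
Hoxb1: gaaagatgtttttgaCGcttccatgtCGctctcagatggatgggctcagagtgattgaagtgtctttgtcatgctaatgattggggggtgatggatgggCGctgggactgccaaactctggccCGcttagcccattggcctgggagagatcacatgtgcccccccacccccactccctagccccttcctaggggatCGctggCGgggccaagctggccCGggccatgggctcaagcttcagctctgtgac
The Hoxd13 window held 31 CpGs, the Hoxa10 window 20, the Hoxb1 window 7 and the Hoxd8 window 6. Over the 32851 promoters of the table the median was 6, with quartiles of 2 and 16. The 24 promoters of the 22 Hox genes had a median of 12.5 and ranged from 2 to 35. Among them was another Hoxa10 promoter, not printed, with 7 CpGs and none of the letter runs counted below. Which Hoxa10 promoter was in use was not tested. On either strand, the letters TATAAA were present in 4 of the 24 Hox promoters, among them those of Hoxd13 and Hoxa10 printed above, and in 12.4% of all promoters. The letters CCAAT were present in 14 of the 24, including all those printed, and in 33.8% of all promoters. The letters TTTATG, part of the site many posterior Hox proteins bind, were in 5 of the 24 and in 10.8% of all, and in none of the 4 windows printed.

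Depth, estimated from the RPKM value that 1 read is worth, was 11.1 to 18.2 M reads (M, mega) in the CJ7 mESC libraries, 24.3 to 46.4 M in the CCE mESC libraries and 23.6 to 39.9 M in the EB libraries. Read numbers behind RPKM values are given below from the same estimate, which worked for 37 of the 38 genes (not for Hoxd8). Eed itself was at 22.3 and 22.1 RPKM in the Eed null mESCs against 105 and 119 in wild type, and at 15.8 and 16.3 RPKM in the Eed null EBs against 49.6 and 55.3, so Eed RNA was lower but not absent in the cells labelled null. Tceb3, the gene of Elongin A, was at 8.02, 6.33 and 6.17 RPKM in the EloA null mESCs against 11.7, 11.2 and 10.7 in wild type. It did not separate the CCE EB pairs: pair A had 7.94 and 9.09 RPKM, pair B 7.7 and 8.64 RPKM, and wild type, above both, 9.89 and 11.4 RPKM. Of 14 fibroblast markers, at most 1 was at 0 in any mESC library, and their summed level spanned 85.4 to 841 RPKM in mESCs, so RNA of fibroblast markers was present in every mESC library.

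In wild type stem cells, Hox RNA was low and came mostly from the posterior ends of the clusters. The 38 genes together gave 21.4 and 20.5 RPKM in CJ7 and 24.9, 21.8 and 20.6 RPKM in CCE. In CJ7 the highest levels were those of Hoxc13, a gene of hair and nail development, at 3.78 and 3.34 RPKM, and of Hoxc12, at 2.28 and 2.35 RPKM. They were followed by Hoxb9 (2.23 and 1.84), Hoxd8 (2.22 and 1.49) and Hoxb13 (1.97 and 1.57 RPKM). Hoxc13 was above the other 4 in both libraries, whereas the ranges of Hoxb9, Hoxd8 and Hoxb13 overlapped.

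The same 5 genes were highest in CCE stem cells, in another order. Hoxc12 led with 5.43, 6 and 5.63 RPKM and Hoxc13 followed with 2.92, 3.42 and 3.27 RPKM, with no overlap between them. Hoxd8 (2.22, 1.58 and 1.4 RPKM), Hoxb9 (1.89, 1.39 and 1.3 RPKM) and Hoxb13 (0.761, 1.17 and 1.58 RPKM) overlapped one another. Hoxb1, a gene of hindbrain identity, had no read in any of the 6 CCE mESC libraries.

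Wild type EBs of the 2 lines differed in Hox RNA. CJ7 EBs summed to 6.61 and 5.41 RPKM and CCE EBs to 40.5 and 30 RPKM, and 32 of the 38 genes were higher in both CCE libraries than in both CJ7 libraries (0 lower). Over all genes the share that was higher in this way was 18.2% and the share lower 22.5%. These are levels of 2 lines side by side, and no test of the line was made. In CJ7 EBs, 27 of 37 genes had fewer than 10 reads in each of the wild type libraries.

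The leading genes of CJ7 EBs were mostly anterior. Hoxd1, an anterior gene that responds to retinoic acid, was at 1.38 and 1.99 RPKM and Hoxb1 at 1.29 and 0.711 RPKM. Hoxb2, another hindbrain gene, was at 0.787 and 0.377, Hoxa13, a gene of the digits and hindgut, at 0.38 and 0.63, and Hoxb4 at 0.512 and 0.12 RPKM. Hoxd1 lay above Hoxb1 with no overlap, Hoxb1 and Hoxb2 overlapped, and so did Hoxb2, Hoxa13 and Hoxb4. In CCE EBs Hoxd1 led with 6.86 and 8.33 RPKM, ahead of Hoxd8 (4.89 and 4.01), Hoxd9 (5.23 and 3.1), Hoxb6 (4.65 and 2.04) and Hoxb1 (1.75 and 1.34 RPKM). The ranges of Hoxd8, Hoxd9 and Hoxb6 overlapped, and Hoxb1 lay below all of them.

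Stem cells and EBs were normalised in separate tables, so their levels are only set side by side. In CJ7 wild type cells 24 of the 38 genes were lower in both EB libraries than in both mESC libraries and 5 were higher (Hoxa13, Hoxb1, Hoxb2, Hoxb3 and Hoxd1, named after their values were seen), against 35.2% and 27.3% of all genes. In CCE wild type cells 9 were lower and 16 higher, against 33.7% and 27.7% of all genes. Fibroblast marker RNA differed between the stages as well. The markers summed to 187 and 243 RPKM in the CJ7 wild type mESCs and to 16 to 19.4 RPKM in the CJ7 wild type EBs. Which cells gave this RNA was not tested. The part of the feeders in the difference between stages was not tested.

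**Figure D1:**
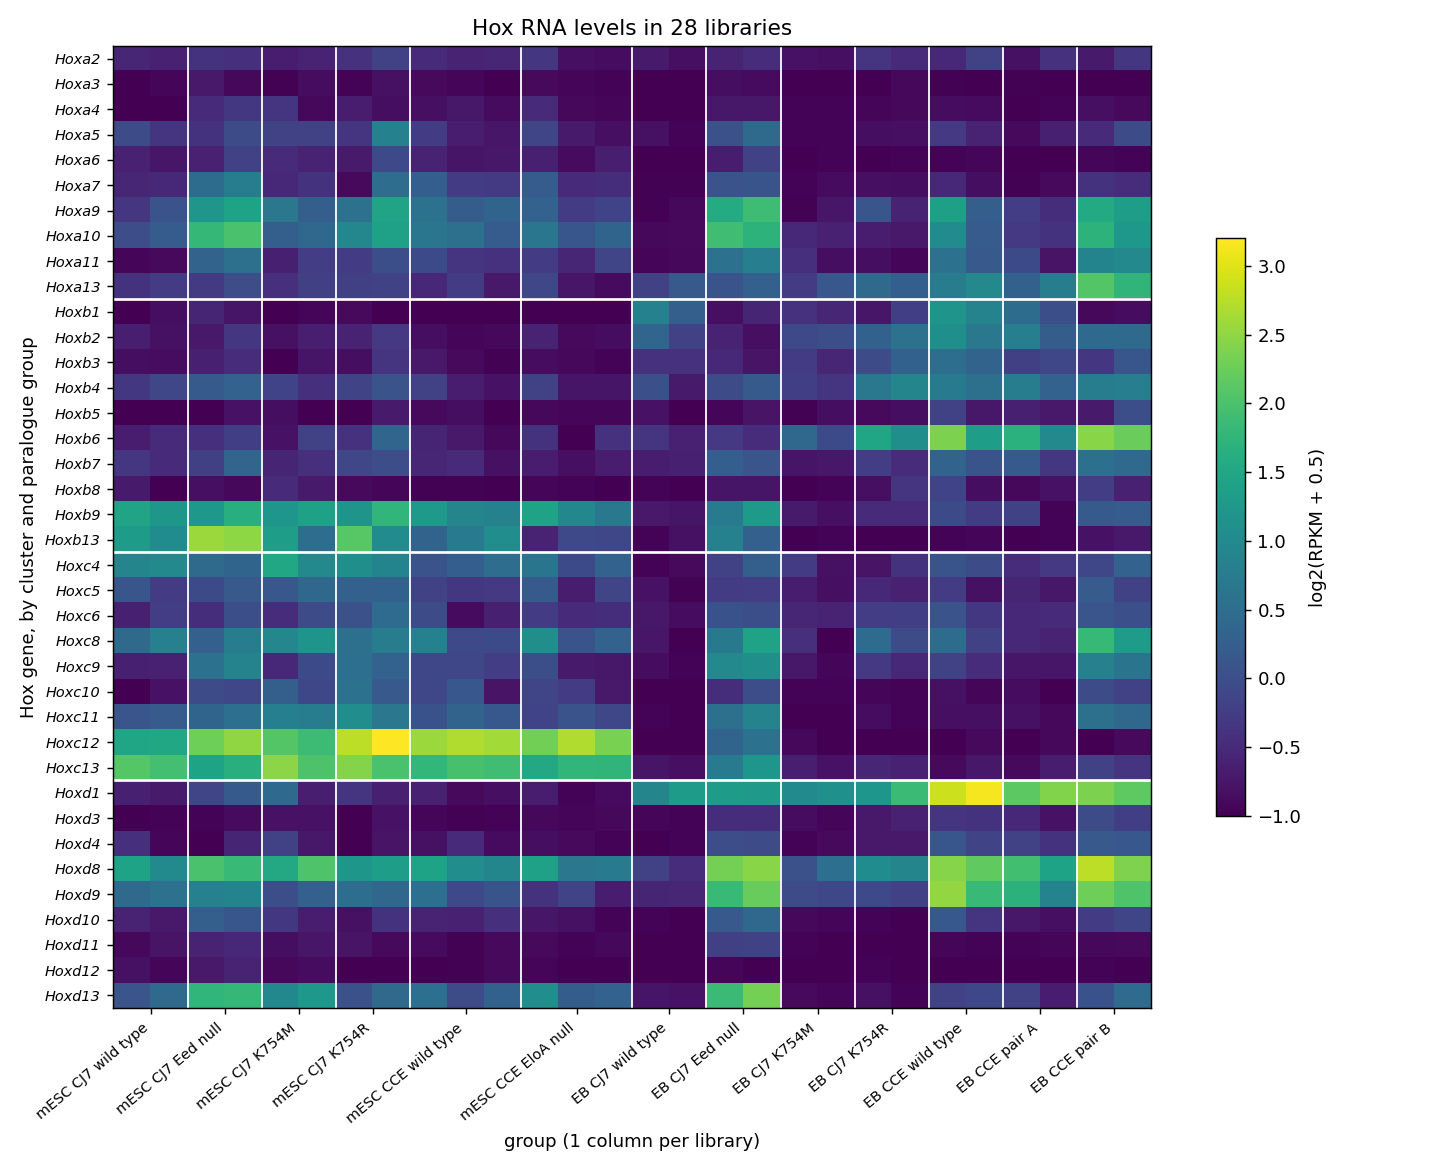
Levels of the 38 Hox genes, as log2(RPKM + 0.5), in each of the 28 libraries (1 column per library, grouped by stage, line and genotype; rows by cluster and paralogue group). The CJ7 wild type EBs are dark outside a few anterior genes, and Hoxc12 and Hoxc13 are bright in all mESC groups; mESC and EB libraries were normalised separately.

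**Figure D2:**
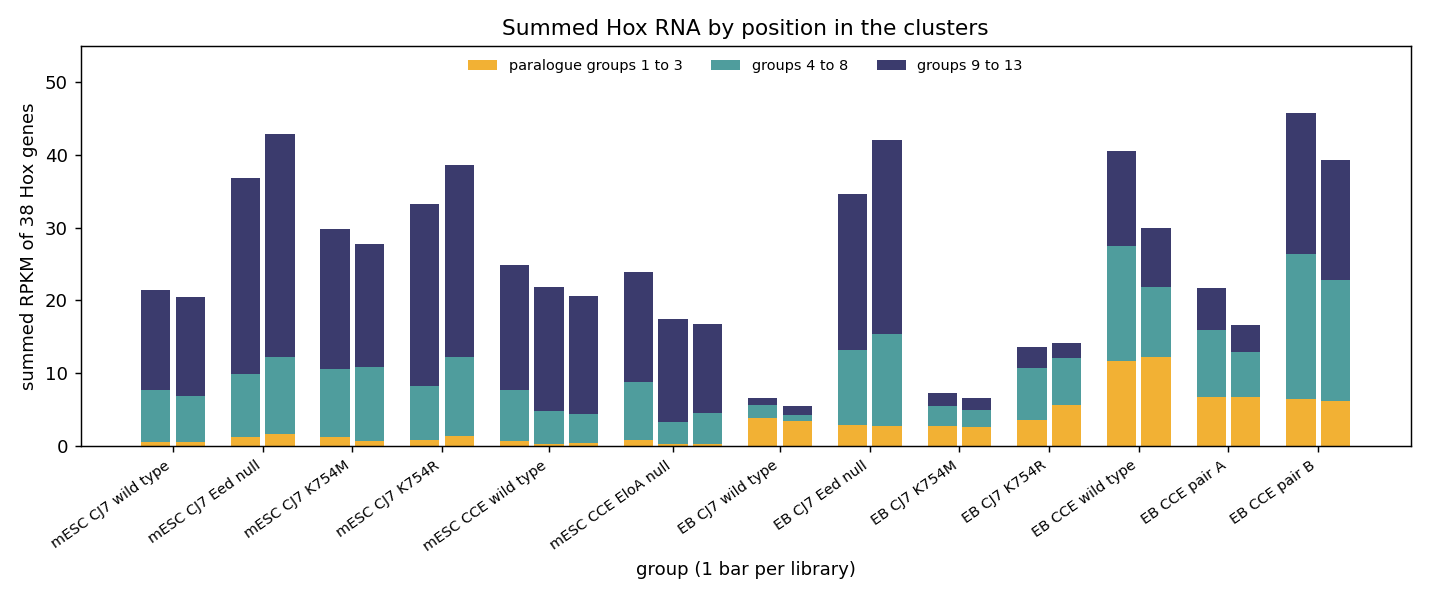
Summed RPKM of the 38 Hox genes in each library, split into paralogue groups 1 to 3, 4 to 8 and 9 to 13 (1 bar per library). The CJ7 wild type EBs stand at 6.61 and 5.41 RPKM and the Eed null EBs at 34.7 and 42.2 RPKM, most of it from groups 9 to 13.

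The comparison of Eed null with wild type CJ7 stem cells asks what Hox RNA does without a core subunit of PRC2. Hox RNA summed to 36.8 and 42.9 RPKM in the Eed null mESCs, above the 21.4 and 20.5 RPKM of wild type, and the rises that passed the test were at 4 posterior genes, Hoxa10, Hoxa11, Hoxc9 and Hoxd13. Hoxa10, which patterns the lower spine and uterus, was at 2.96 and 3.49 RPKM against 0.49 and 0.664, a difference of 1.79 ± 0.26 on the log2(RPKM + 0.5) scale (± is the standard error here and below; limma, Benjamini-Hochberg adjusted p = 0.0124). Hoxd13, a gene of the digits, was at 2.88 and 2.97 RPKM (100 reads in each library) against 0.582 and 0.858 (16 and 29 reads), a difference of 1.5 ± 0.27 (limma adjusted p = 0.0225). The groups did not overlap at either gene.

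The other called genes had almost no RNA in wild type stem cells. Hoxa11, which acts in the kidney and the forearm, was at 0.763 and 0.964 RPKM (40 and 49 reads) in Eed null against 0.0241 and 0.0392 (1 and 2 reads), a difference of 1.36 ± 0.24 (limma adjusted p = 0.0236); the annotation places Hoxa11os antisense to it, and reads of the pair cannot be told apart without the strand. Hoxc9, a thoracic gene, was at 0.974 and 1.34 RPKM (33 and 44 reads) against 0.149 and 0.151 (4 and 5 reads), a difference of 1.34 ± 0.26 (limma adjusted p = 0.0299). Again every Eed null library lay above both wild type libraries. In bulk RNA, more cells with a Hox gene on and more RNA per cell cannot be told apart.

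Of the 38 genes, 29 passed the filter of at least 0.25 RPKM in 2 libraries, 3 of them only through the Eed null libraries. With limma, 4 were called higher and 0 lower, while 12 had an unadjusted p under 0.05, as did 5484 of all 21012 genes tested. Of all 21012 genes tested 8.59% were called; 5.32% of the genes tested were higher and 3.27% lower. A fit of all mESC libraries called 8 of 29, where 23.9% of all genes were called. All 4 calls were among the 14 posterior genes tested, with none among the 12 central and the 3 anterior genes. Over all 38 genes, 24 were higher in both Eed null libraries than in both wild type libraries and 2 were lower (Hoxc4 and Hoxc13), against 32.7% and 23.4% of all genes. No call remained when any 1 of the 4 Eed null and wild type libraries was left out, although the differences of the 4 genes stayed between 1.18 and 1.91 on the log2 scale.

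Some of the larger differences did not pass the threshold. Hoxb13, a tail gene, was at 5.42 and 5.12 RPKM in Eed null against 1.97 and 1.57 (1.35 ± 0.42, limma adjusted p = 0.103), and Hoxc12 at 4.31 and 5.16 against 2.28 and 2.35 RPKM (0.89 ± 0.22, limma adjusted p = 0.0555). Hoxa9, known from blood stem cells and leukaemia, was at 1.77 and 2.22 RPKM against 0.291 and 0.553 (1.45 ± 0.36, limma adjusted p = 0.0605). Uncalled differences were not confined to posterior genes. The central Hoxa7 was at 0.894 and 1.22 RPKM (55 and 73 reads) in Eed null against 0.185 and 0.2 RPKM (9 and 12 reads) in wild type. Each of these genes had its libraries apart by group, and all were chosen after their values were seen.

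Other cell markers moved with these genes. The 14 fibroblast markers summed to 270 and 396 RPKM in Eed null and 187 and 243 RPKM in wild type mESCs, none was at 0, and 1 of 14 was called (lower). The 9 trophoblast markers summed to 264 to 267 RPKM in Eed null and 26 to 39.5 RPKM in wild type, with 4 of 8 tested called higher, none at 0 in Eed null and 1 at 0 in wild type. In the Eed null mESCs the library with more fibroblast RNA had the higher level at 29 of the 38 Hox genes. The share of all genes higher in that library was not counted, and the part of either cell type in the Hox differences was not tested.

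**Figure D3:**
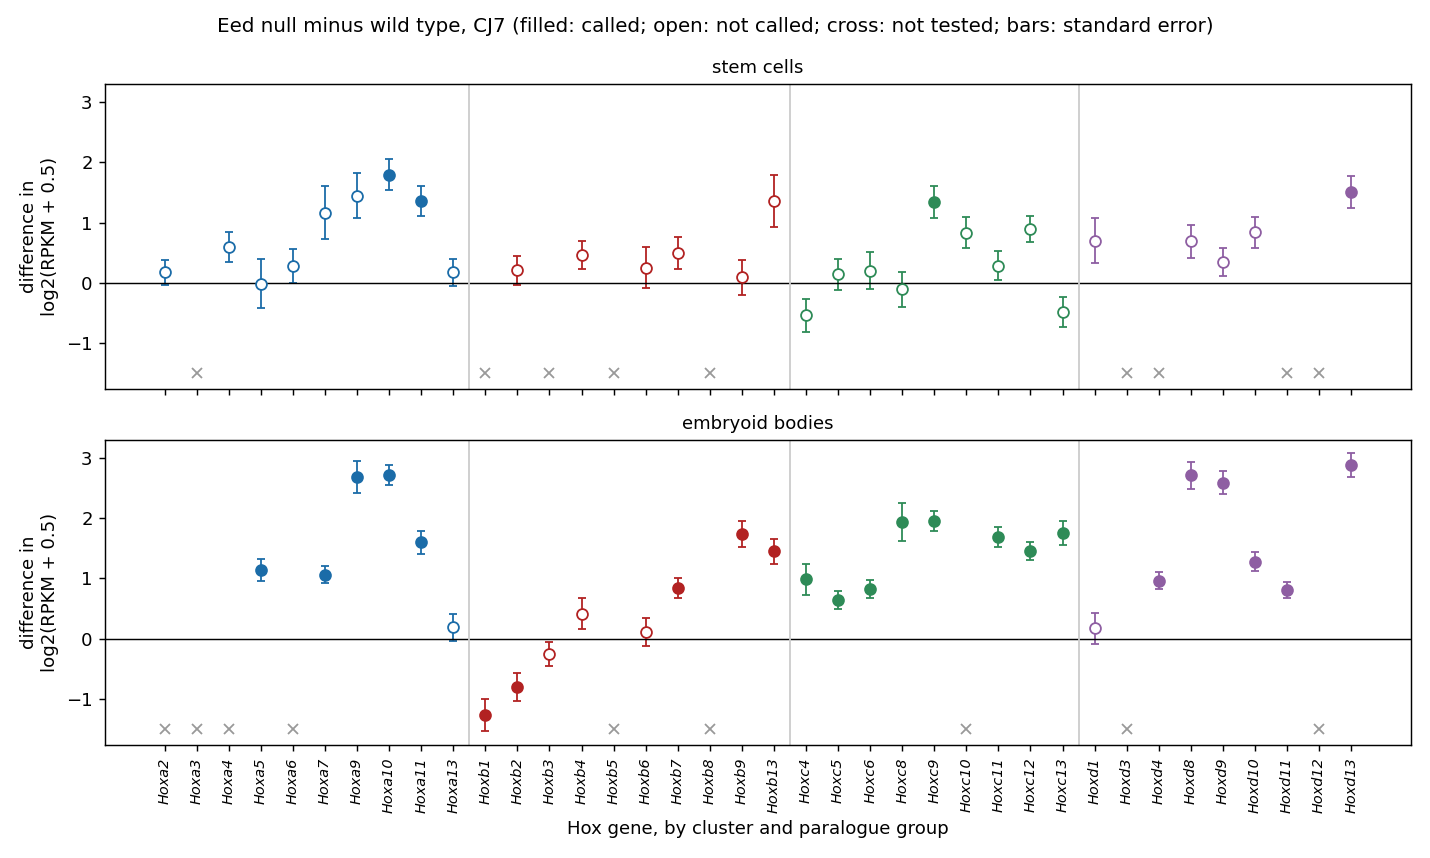
Difference between Eed null and wild type CJ7 cells in log2(RPKM + 0.5) for each Hox gene in stem cells (top) and EBs (bottom), ordered by cluster and paralogue group, with standard errors (2 libraries per group). Filled circles were called by limma, open circles were not, and crosses at the lower edge mark genes below the filter; the posterior genes reach 2.87 in EBs, and Hoxb1 and Hoxb2 lie below 0.

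After 5 days as EBs the Eed null cells held RNA of central and posterior genes of all 4 clusters, most of which had few or no reads in wild type EBs. Hox RNA summed to 34.7 and 42.2 RPKM in Eed null, with the 6.61 and 5.41 RPKM of wild type far below. The difference was largest over the 16 posterior genes, which summed to 21.5 and 26.7 RPKM against 1.01 and 1.23, and next over the 15 central genes, with 10.3 and 12.7 RPKM against 1.76 and 0.769. The sum of the 7 anterior genes went the other way, with 2.86 and 2.72 RPKM against 3.85 and 3.42. Of these, Hoxb1, Hoxb2 and Hoxb3 were lower in both Eed null libraries than in both wild type libraries. Hoxa2, Hoxa3 and Hoxd3 were higher in this way, and Hoxd1 overlapped.

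With limma, 22 of 29 genes tested were called higher and 2 lower, against 30.4% of all 19300 genes tested called in either direction, 19.2% higher and 11.2% lower. That count is not evidence of its own, because 17 of the 29, all among those called higher, passed the filter only through the Eed null libraries. Adjusted p-values given below for any of these 17 genes carry the same limit. Without any filter, so that all 38 genes entered the fit, 26 were called higher and 1 lower, against 14.1% and 6.72% of all genes. The libraries did not overlap at 32 of the 38 genes, higher in Eed null at 29 and lower at 3 (Hoxb1, Hoxb2 and Hoxb3), against 32.8% and 22.2% of all genes.

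Hoxd13 and Hoxa10, the leading posterior genes, had few reads in wild type and many in Eed null. Hoxd13 was at 3.13 and 4.5 RPKM (310 and 389 reads) in Eed null EBs against 0.0895 and 0.0753 RPKM (7 and 6 reads) in wild type, a difference of 2.87 ± 0.20 (limma adjusted p = 9.97e-05). Hoxa10 was at 3.25 and 2.77 RPKM (647 and 482 reads) against 0.0319 and 0.0376 (5 and 6 reads), a difference of 2.71 ± 0.16 (limma adjusted p = 6.5e-05). Hoxa9 was at 2.5 and 3.23 RPKM against 0.0114 and 0.0335, a difference of 2.68 ± 0.26 (limma adjusted p = 0.000388). At these 3 genes the lowest Eed null library was far above the highest wild type library, and the log2 scale with its added 0.5 RPKM understates such changes.

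The Hoxd cluster gave the highest levels. Hoxd8, a trunk gene, was the most abundant Hox gene in both Eed null EB libraries, at 4.52 and 4.95 RPKM against 0.39 and 0.221 (2.71 ± 0.22, limma adjusted p = 0.000191). Its neighbour Hoxd9 was at 3.05 and 4.16 RPKM against 0.174 and 0.186 (2.58 ± 0.19, limma adjusted p = 0.000122). Of the 7 Hoxd genes tested 6 rose, and the exception, the anterior Hoxd1, was at 1.99 and 1.89 RPKM against 1.38 and 1.99, with the groups overlapping.

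In the Hoxc cluster, which has no genes of groups 1 to 3, all 8 genes tested rose. Hoxc9 was at 1.47 and 1.64 RPKM against 0.0523 and 0.0128 (1.95 ± 0.17, limma adjusted p = 0.000254). Hoxc8, a gene of the brachial and thoracic trunk, was at 1.13 and 2.18 RPKM against 0.0966 and 0 (1.94 ± 0.32, limma adjusted p = 0.00382). The values of the Eed null libraries differed from each other more at Hoxc8 than at Hoxc9, and both genes kept the groups apart. Hoxc13 was at 1.15 and 1.8 RPKM against 0.0903 and 0.0633 (1.76 ± 0.20, limma adjusted p = 0.000748) and Hoxc11 at 0.966 and 1.33 against 0.0157 and 0 (1.69 ± 0.17, limma adjusted p = 0.000408). Hoxc12 had no read in wild type and 32 and 35 reads in Eed null. Taking 3 reads per wild type library as the floor, it was at least 9.55-fold higher, and Hoxd11, with 80 and 73 reads against none, at least 21.7-fold higher.

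The Hoxb cluster was divided by position. Hoxb9, a thoracic gene, rose (1.14 and 1.92 RPKM against 0.111 and 0.0869, 1.73 ± 0.21, limma adjusted p = 0.000997), as did Hoxb7 and Hoxb13. Hoxb3, Hoxb4 and Hoxb6, which lie between, were not called. At the anterior end Hoxb1 fell, with 0.0612 and 0.175 RPKM (6 and 15 reads) in Eed null against 1.29 and 0.711 (100 and 56 reads) in wild type (-1.26 ± 0.26, limma adjusted p = 0.00984). Hoxb2 fell too, with 0.167 and 0.0607 RPKM against 0.787 and 0.377 (-0.80 ± 0.23, limma adjusted p = 0.0364). Hoxb1 and Hoxb2, both outside the 10 largest differences, are given because they were the sole falls.

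Limits differ between the rises and the falls, and 17 of the 22 rises were tested only through the Eed null libraries. When each library was left out in turn, 20 of the 22 rises were called every time, the exceptions being Hoxc4 and Hoxc5. Hoxb1 was no longer called without Eed null library 1 (-1.13, limma adjusted p = 0.0552), and Hoxb2 was called in 1 of the 4 cases, with adjusted p = 0.064 without Eed null library 1, 0.144 without Eed null library 2 and 0.149 without wild type library 1. With the filter applied anew, leaving out Eed null library 1 or Eed null library 2 left 15 Hox genes tested, and fewer were then called. The share of all genes called in these fits is not given here. The RNA Hoxb3os, which lies antisense to Hoxb2 and Hoxb3, fell as well (0.32 against 2.11 RPKM, -1.65 ± 0.23, limma adjusted p = 0.00206). Since the strand setting of the counting is not known, Hoxb2 reads and Hoxb3os reads cannot be told apart.

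Position in the cluster is summarised by counts. Of the genes tested, 13 of 14 posterior and 9 of 11 central genes rose and 0 of 4 anterior genes did, with medians of 1.71, 0.96 and -0.52 on the log2 scale, against a median of 0.05 over all genes tested. As above, 17 of these 29 genes were tested only because of their Eed null values, so the counts and medians describe them and support nothing further. The anterior Hoxa2, Hoxa3 and Hoxd3, below the filter, were higher in both Eed null libraries than in both wild type libraries. By cluster, 5 of 6 Hoxa, 3 of 8 Hoxb, 8 of 8 Hoxc and 6 of 7 Hoxd genes rose, and the 2 falls were in Hoxb. The median of the 29 was 1.14. With wild type set at the floor of 3 reads, Hoxc12 was at 1.21 and Hoxd11 at 0.76. Neither gene crossed the median, so its value of 1.14 with the floor is no check on it. Hoxa13, the posterior gene not called, was at 0.562 and 0.718 RPKM against 0.38 and 0.63, and so overlapped.

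RNA of markers of several cell types differed in the same EBs. The 6 stem cell markers, all of which rose, summed to 631 to 685 RPKM in Eed null and 99.1 to 121 RPKM in wild type EBs. The 10 extraembryonic endoderm markers summed to 347 to 396 against 70.2 to 73.4 RPKM (6 rose, 3 fell), and the 9 primitive streak and mesoderm markers to 43.8 to 57.9 against 175 to 208 RPKM (1 rose, 7 fell). No marker of these 3 lists was at 0 in either group. In bulk RNA, a change in cell makeup and a change in marker RNA per cell cannot be told apart. The part of either in the Hox differences was not tested. The fibroblast markers summed to 18.8 to 19.1 against 16 to 19.4 RPKM, while 4 of 12 tested rose and 1 fell, with 2 of 14 at 0 in each wild type library and none at 0 in Eed null.

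Hoxa10, Hoxa11, Hoxc9 and Hoxd13 were thus called higher at both stages, and their levels are set side by side. Hoxa10 was at 2.96 and 3.49 RPKM in Eed null mESCs and 3.25 and 2.77 RPKM in Eed null EBs, and at 0.49 and 0.664 RPKM in wild type mESCs and 0.0319 and 0.0376 RPKM in wild type EBs. Hoxa11 was at 0.98 and 1.24 RPKM in Eed null EBs and 0.0254 and 0.0332 RPKM in wild type EBs, near its mESC levels in both genotypes. Levels at the stages come from separately normalised tables, and the difference between the stages was not tested.

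**Figure D4:**
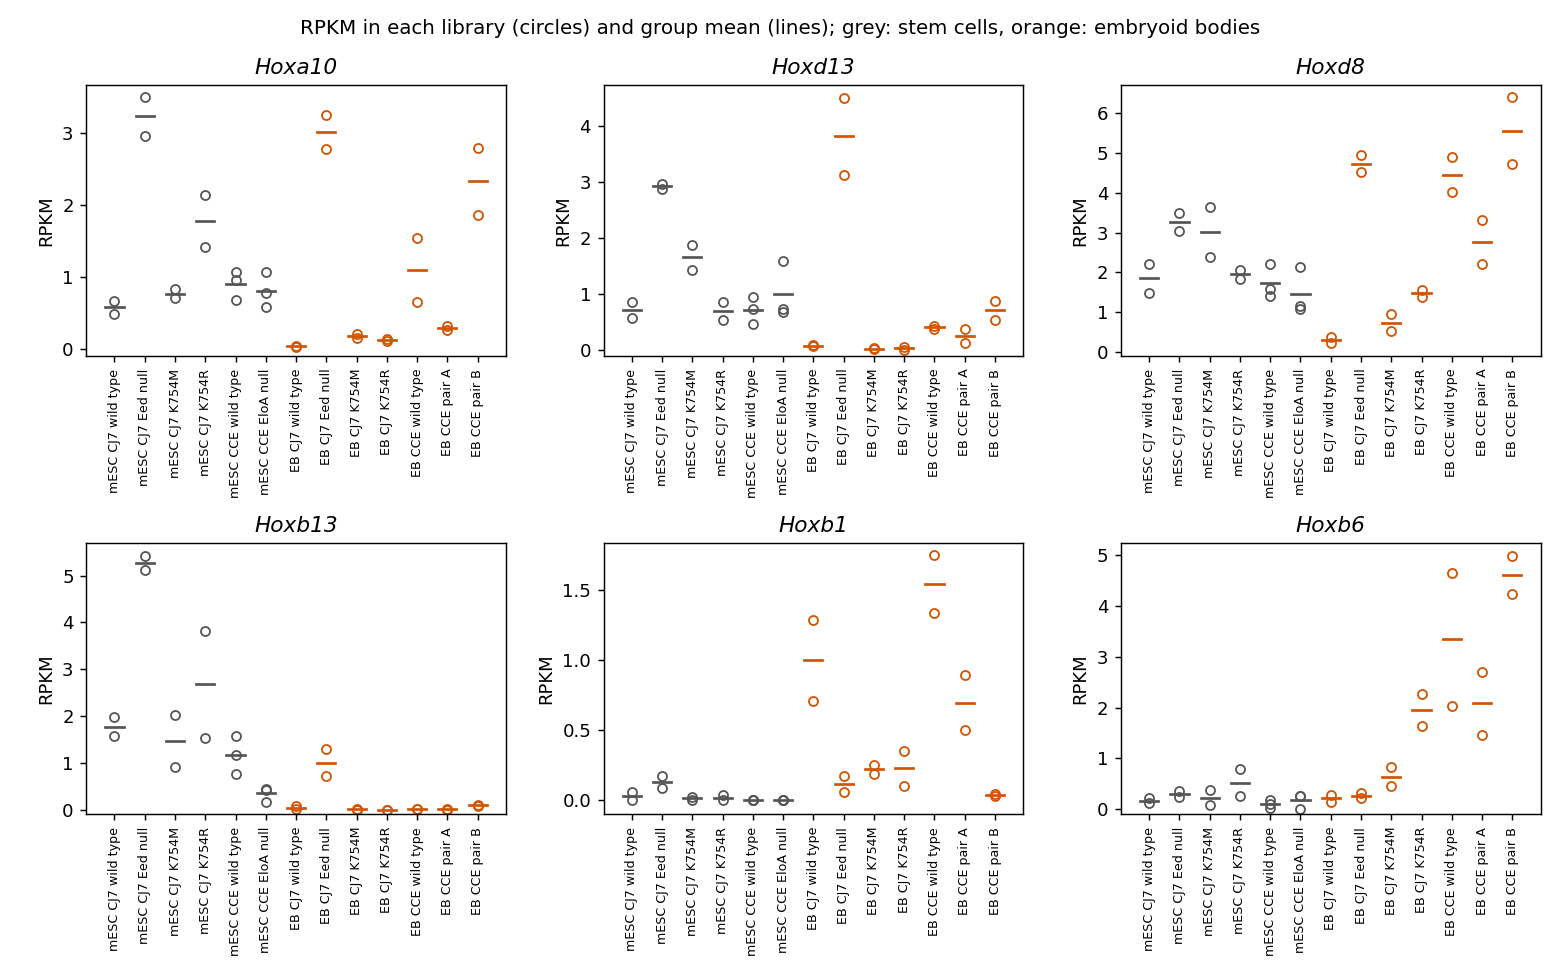
RPKM of Hoxa10, Hoxd13, Hoxd8, Hoxb13, Hoxb1 and Hoxb6 in each library (circles) with the mean of each group (lines); grey for stem cells and orange for EBs, which were normalised separately. Hoxa10 and Hoxd13 are high in Eed null cells at both stages, while Hoxb1 is highest in wild type EBs of both lines.

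The K754M and K754R edits were compared with wild type to see whether Hox RNA changed when that lysine of Elongin A was replaced. In stem cells no Hox gene was called. With limma, 0 of 29 were called in K754M (3 with an unadjusted p under 0.05, lowest adjusted p = 0.238), where 0% of all genes were called. Of all 21012 genes, 2103 had an unadjusted p under 0.05. In K754R 0 of 29 were called (7 with an unadjusted p under 0.05, lowest limma adjusted p = 0.0659), where 0.162% of all genes were (0.0761% higher and 0.0857% lower). Here 3000 of all 21012 genes had an unadjusted p under 0.05.

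The lowest p in K754R stem cells belonged to Hoxc12, at 6.36 and 8.68 RPKM against 2.28 and 2.35 in wild type (1.49 ± 0.22, limma adjusted p = 0.0659). Hoxc12 thus stood above wild type in both libraries without passing the threshold. In a fit of all libraries of the stage, 6 of 29 Hox genes were called higher in K754R mESCs, where 8.02% of all genes were called. Over the 38 genes, 16 were higher in both K754R libraries than in both wild type libraries and 1 lower, against 18.4% and 17% of all genes, and in K754M 14 were higher and 1 lower, against 17.2% and 13.6%. The fibroblast markers summed to 229 and 841 RPKM in K754R, 181 and 431 in K754M and 187 and 243 RPKM in wild type, with at most 1 of 14 at 0. The library with more fibroblast RNA was the higher at 25 of the 38 Hox genes in K754R (lower at 12), at 22 in K754M (lower at 16) and at 20 in wild type (lower at 16). The share of all genes higher in those libraries was not counted, and the part of the feeders in these differences was not tested.

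In EBs, 4 Hox genes differed between K754R and wild type by the test, and none of the 4 was called in every fit with 1 library left out. Hox RNA summed to 13.6 and 14.1 RPKM in K754R, 7.23 and 6.49 in K754M and 6.61 and 5.41 RPKM in wild type. Hoxb6, a gene of trunk mesoderm, rose from 0.275 and 0.15 RPKM (18 and 10 reads) to 2.27 and 1.64 RPKM (135 and 109 reads), a difference of 1.78 ± 0.23 (limma adjusted p = 0.00752). Hoxd8 rose from 0.39 and 0.221 to 1.56 and 1.39 RPKM (1.30 ± 0.22, limma adjusted p = 0.017).

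Hoxb4, known for its action in blood stem cells, rose from 0.512 and 0.12 RPKM to 1.1 and 1.38 RPKM (1.13 ± 0.26, limma adjusted p = 0.0372). Hoxb1 fell from 1.29 and 0.711 RPKM (100 and 56 reads) to 0.0993 and 0.356 RPKM (7 and 28 reads), a difference of -1.04 ± 0.26 (limma adjusted p = 0.0485). The groups did not overlap at any of the 4 genes. The 3 rises were all in central genes and the fall was in an anterior gene.

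The 4 calls among 29 tested genes, 3 higher and 1 lower, compare with 9.68% of all genes called, 4.82% higher and 4.85% lower, and another 25 were not called. Over the 38 genes, 23 were higher in both K754R libraries and 3 lower, against 25.8% and 23.8% of all genes. The calls were lost when K754R library 1 or wild type library 2 was left out (0 called), and 1 remained without K754R library 2 (Hoxb6). Without wild type library 1, 3 remained, and Hoxb1 did not. Hoxb1 also missed the threshold at a pseudocount of 0.1 (limma adjusted p = 0.0724), without the filter (0.0815), after quantile normalization (0.0552) and with the replicate number as a block (0.0548), and Hoxb4 did at a pseudocount of 0.1 (0.057) and without the filter (0.0721).

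Other markers differed in the same libraries. In K754R EBs the 14 fibroblast markers summed to 47.1 to 54.2 RPKM against 16 to 19.4 in wild type, 7 of 12 tested rose and 0 fell, and 1 was at 0 in each K754R library and 2 in each wild type library. Stem cell markers summed to 14 to 19 RPKM against 99.1 to 121, with 3 of 6 lower. Primitive streak and mesoderm markers summed to 102 to 128 RPKM against 175 to 208, with 3 of 9 lower (T, Mesp1 and Mixl1), and extraembryonic endoderm markers to 97.6 to 99.3 RPKM against 70.2 to 73.4, with 3 of 10 higher and 1 lower. None of these 3 lists had a marker at 0 in either group. The part of these cells in the Hox differences was not tested.

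In K754M EBs no Hox gene was called with limma, 0 of 29, where 0.565% of all genes were called (0.181% higher and 0.383% lower). An unadjusted p under 0.05 was found for 4 of the 29 and for 2934 of all 19300 genes. The lowest limma adjusted p of a Hox gene was 0.133. The lowest was Hoxb1, at 0.254 and 0.187 RPKM (20 and 15 reads) against 1.29 and 0.711 (100 and 56 reads) in wild type, a difference of -1.03 ± 0.26. That is close to the -1.04 ± 0.26 measured for Hoxb1 in K754R, and both comparisons use the same wild type libraries. Over the 38 genes, 12 were higher and 5 lower in both K754M libraries, against 21.4% and 22.1% of all genes.

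Set directly against each other, the edits gave 1 called Hox gene, Hoxb6. It was at 0.826 and 0.458 RPKM in K754M and 2.27 and 1.64 RPKM in K754R (-1.11 ± 0.23, limma adjusted p = 0.0492), with no overlap. This was 1 of 29 genes tested (3.45%), near the 3.62% of all genes that were called (1.9% higher and 1.72% lower). The call was lost when any of the 4 K754M and K754R libraries was left out (limma adjusted p up to 0.254), and also at a pseudocount of 0.1 (0.0847), without the filter (0.0984), after quantile normalization (0.0785) and in a fit of all EB libraries (0.0895). K754M was lower in both libraries at 24 of the 38 genes and higher at 3, against 25.4% and 22.2% of all genes.

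In CCE stem cells the summed Hox RNA of EloA null and wild type libraries overlapped. The sums were 23.9, 17.5 and 16.7 RPKM in EloA null and 24.9, 21.8 and 20.6 RPKM in wild type. With limma, 0 of 22 genes tested were called (2 with an unadjusted p under 0.05, lowest adjusted p = 0.0927), where 3.35% of all genes were called (2.12% higher and 1.23% lower). An unadjusted p under 0.05 was found for 3282 of all 18460 genes. None of the 38 was higher in every EloA null library than in every wild type library, and 4 were lower (Hoxb13, Hoxc13, Hoxd9 and Hoxd10), against 8.68% and 10.2% of all genes.

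Hoxb13 had the lowest p. It was at 0.157, 0.451 and 0.428 RPKM (12, 31 and 23 reads) in EloA null and 0.761, 1.17 and 1.58 RPKM (78, 113 and 150 reads) in wild type, a difference of -0.97 ± 0.24 (limma adjusted p = 0.0927). No label pairs these libraries, and pairs by replicate number were inferred from the same data. With these pairs as a replicate block Hoxb13 was called lower (-0.97 ± 0.13, limma adjusted p = 0.0169), the 1 Hox gene of 22 that was, in a fit that called 12.4% of all genes. Every EloA null library was thus below every wild type library at Hoxb13.

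In both groups the library numbered 1 had the most fibroblast marker RNA, 392 RPKM against 183 and 228 in EloA null and 277 against 85.4 and 117 RPKM in wild type, with none of the 14 markers at 0. That library was also the highest of its group at 31 of the 38 Hox genes in EloA null and at 23 of 38 in wild type. Hoxb13 went the other way, being lowest in library 1 of each group. The share of all genes highest in library 1 was not counted, and the part of the feeders in the Hox levels was not tested.

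In CCE EBs, pair A held less Hox RNA than wild type, and pair B overlapped wild type. The sums were 21.7 and 16.5 RPKM for pair A, 40.5 and 30 for wild type and 45.7 and 39.4 for pair B. No single Hox gene passed the test in any of these comparisons. With limma, 0 of 30 were called in pair A against wild type (9 with an unadjusted p under 0.05; lowest adjusted p = 0.708), where 0% of all genes were called and 1166 of 17735 had an unadjusted p under 0.05. In pair B against wild type 0 of 30 were called (9 with an unadjusted p under 0.05, lowest limma adjusted p = 0.0565), where 0.135% of all genes were (0.107% higher and 0.0282% lower). Here 2746 of all 17735 genes had an unadjusted p under 0.05, and 8 of the 30 Hox genes passed the filter only through pair B.

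Pair A was below wild type in the fitted difference at 29 of 30 genes tested, with a median of -0.38 against 0.00 over all genes. Over the 38 genes, 19 were lower in both pair A libraries than in both wild type libraries and 0 higher, against 14.4% and 16.3% of all genes. The lower genes included Hoxd1, the highest Hox gene of these EBs, at 3.9 and 4.79 RPKM against 6.86 and 8.33 (-0.74 ± 0.17), and Hoxa9, at 0.352 and 0.233 against 2.11 and 0.712 RPKM (-1.17 ± 0.37). Both had limma adjusted p = 0.708 and were chosen after their values were seen.

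The anterior and posterior sums of pair B lay on opposite sides of wild type, with no single gene called. The 7 anterior genes summed to 6.43 and 6.13 RPKM against 11.7 and 12.2 in wild type, and the 16 posterior genes to 19.4 and 16.5 RPKM against 13.1 and 8.11. Neither sum overlapped between the groups. Not every gene followed its sum, as the anterior Hoxd3 was higher in both pair B libraries and the posterior Hoxd9 overlapped. Hoxb1 was at 0.033 and 0.0481 RPKM (2 and 3 reads) against 1.75 and 1.34 RPKM (133 and 78 reads) in wild type, a difference of -1.91 ± 0.24 (limma adjusted p = 0.0565). Hoxc11 was at 0.961 and 0.817 RPKM against 0.064 and 0.0628 (1.30 ± 0.19, limma adjusted p = 0.0611). Hoxc8 was at 3.03 and 2 RPKM against 0.901 and 0.386 (1.41 ± 0.30, limma adjusted p = 0.119). At each of the 3 genes, chosen after their values were seen, the groups did not overlap. Over the 38 genes, 18 were higher and 4 lower in both pair B libraries, against 21.7% and 17.9% of all genes.

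Between the pairs, 29 of the 38 genes were higher in both pair B libraries than in both pair A libraries and 2 lower, against 24.1% and 20.4% of all genes. With limma 0 of 30 were called (18 with an unadjusted p under 0.05, lowest adjusted p = 0.0586), where 0.44% of all genes were called (0.344% higher and 0.0959% lower). An unadjusted p under 0.05 was found for 3319 of all 17735 genes. A fit of all EB libraries called 9 of 34, where 3.96% of all genes were called, and in pair B against wild type 5 of 34, where 2.95% were. The largest differences were at Hoxc8 (3.03 and 2 RPKM in pair B, 0.191 and 0.164 in pair A, 2.13 ± 0.30, limma adjusted p = 0.0586) and Hoxa10 (2.79 and 1.86 against 0.313 and 0.268 RPKM, 1.82 ± 0.33, limma adjusted p = 0.0805). Both pairs carry contradictory labels, so no direction is tied to a genotype.

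The fibroblast markers followed the same order, with sums of 33.9 to 37.5 RPKM in pair A, 49.6 to 50.7 in wild type and 66.1 to 76 RPKM in pair B, and with 0 of 11 tested called in any comparison of these groups. Up to 3 of the 14 were at 0 in a library. Primitive streak and mesoderm markers summed to 144 to 200 RPKM in pair A, 158 to 229 in wild type and 88.9 to 107 RPKM in pair B. Extraembryonic endoderm markers summed to 60.9 to 62.5 RPKM in pair A, 47.6 to 48.7 in wild type and 74.7 to 92.9 RPKM in pair B, and 1 of them, the laminin gene Lama1, was called between the pairs (19 RPKM in B against 4.27 in A, limma adjusted p = 0.0487). The part of these cells in the Hox levels was not tested.

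**Figure D5:**
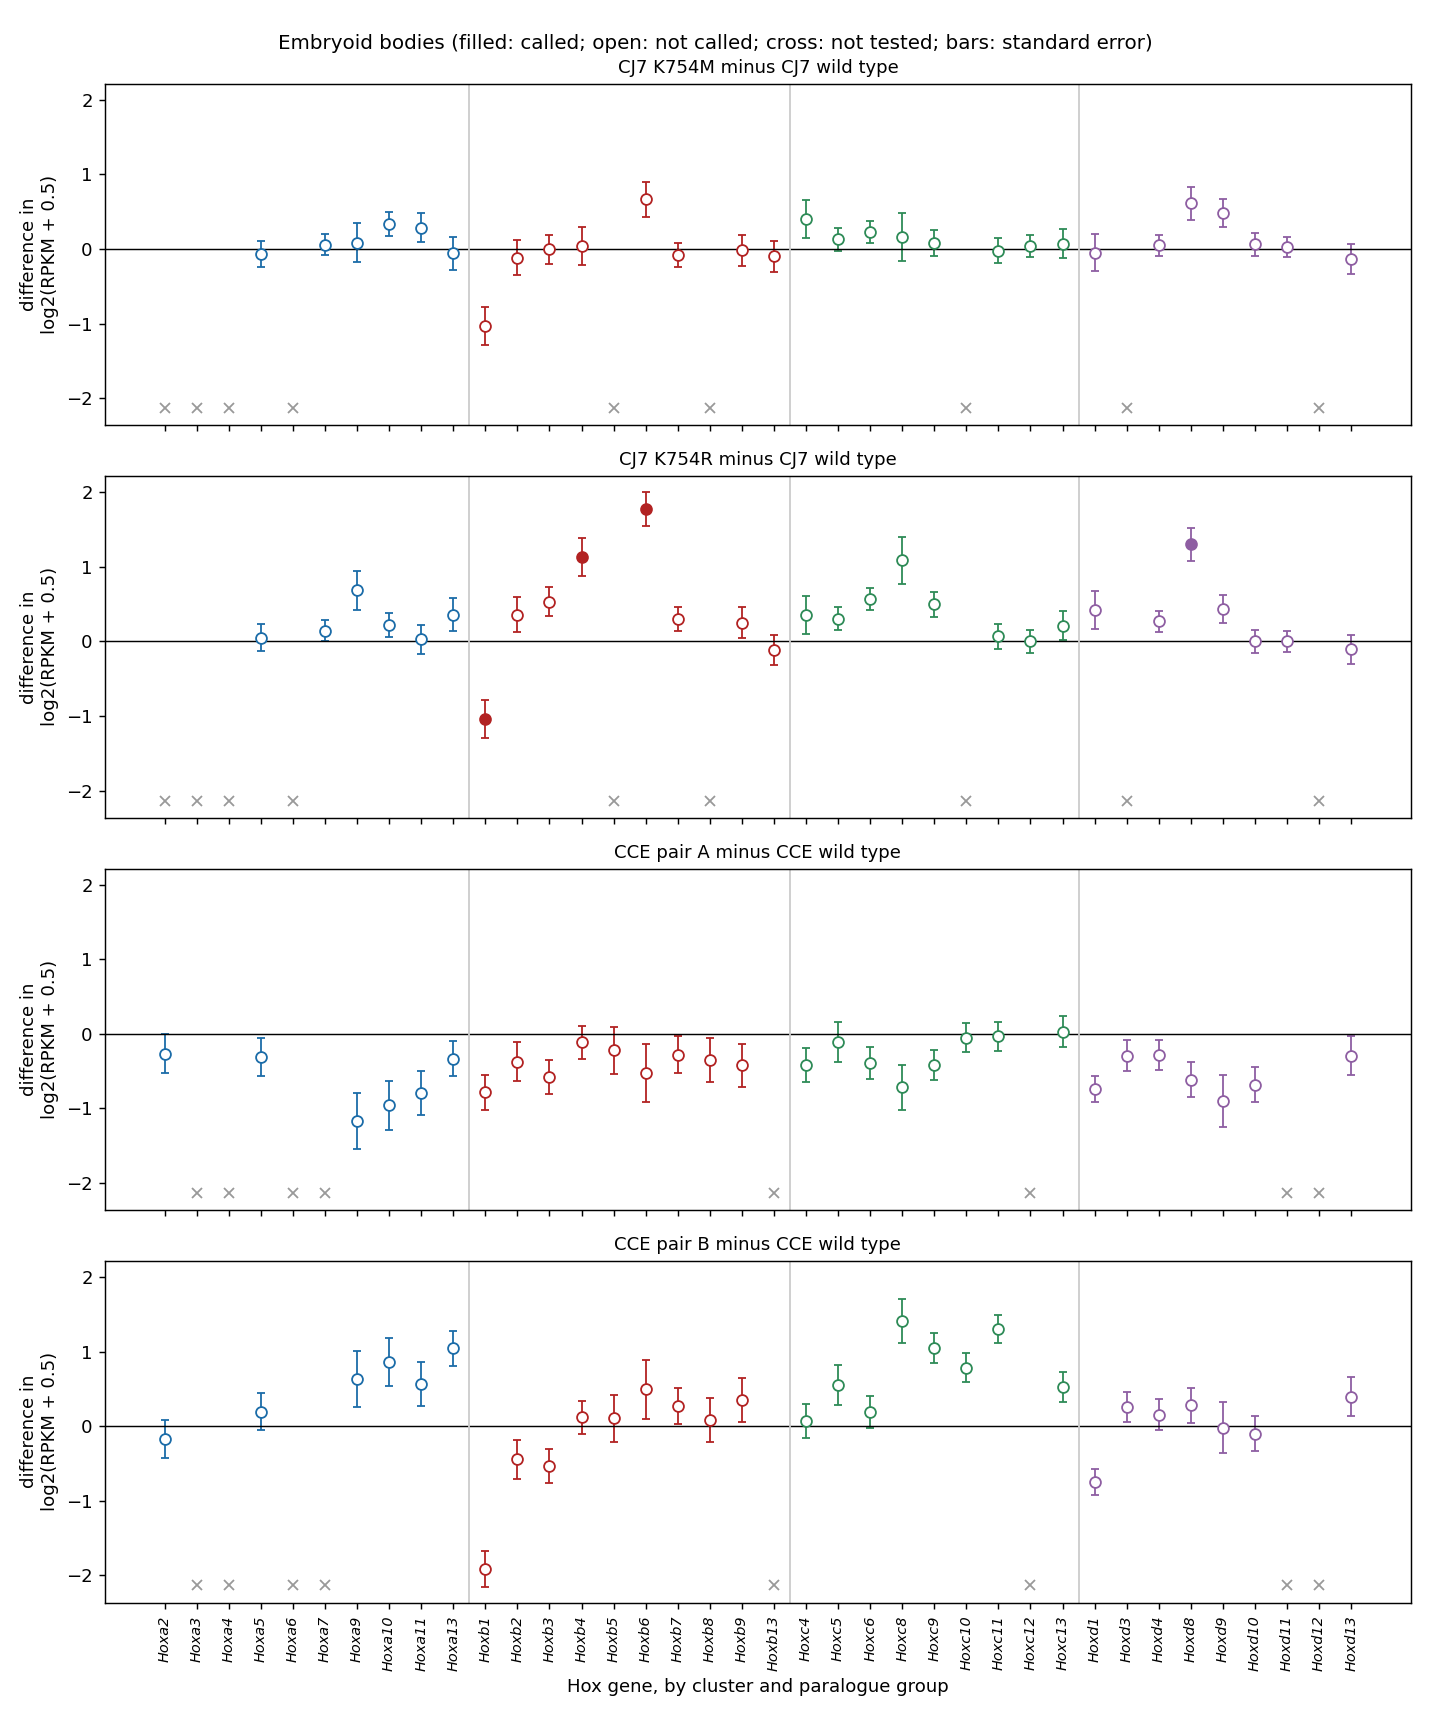
Difference from the wild type EBs of the same line, in log2(RPKM + 0.5), for each Hox gene in CJ7 K754M, CJ7 K754R, CCE pair A and CCE pair B EBs, with standard errors (2 libraries per group). Filled circles were called by limma, open circles were not, and crosses at the lower edge mark genes below the filter; Hoxb6 at 1.78 is the largest called difference, and Hoxb1 lies below 0 in all 4 panels.

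Genes that work with or upstream of Hox genes, and the neighbours of the clusters, were counted as lists. The shares of all genes called, given above, were 8.59% in Eed null mESCs, 30.4% in Eed null EBs and 9.68% in K754R EBs, and no list was tested against them. Among the 9 Hox cofactors, the Pbx, Meis and Pknox proteins that bind DNA with Hox proteins, 2 rose and 2 fell in Eed null EBs, 5 rose and 0 fell in K754R EBs, and 1 rose in Eed null mESCs. Of the upstream regulators, which include Cdx factors, Wnt and Fgf signals and retinoic acid genes, 14 of 16 were tested in CJ7 EBs. In Eed null EBs 5 of these rose and 5 fell, and in K754R EBs 2 rose and 4 fell. Of 13 tested in Eed null mESCs 2 rose, both Cdx factors that activate central and posterior Hox genes. Cdx1 went from 1.87 to 16.5 RPKM (2.85 ± 0.22, limma adjusted p = 0.0014) and Cdx2 was at 3.68 RPKM, with wild type listed at 0 in each library (limma adjusted p = 0.0404).

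The largest changes of these lists in Eed null EBs were those of the signal Fgf4, from 1.38 to 20.4 RPKM (3.45 ± 0.28, limma adjusted p = 0.000188), and Calcoco2, which flanks the Hoxb cluster, from 0.408 to 8.53 RPKM (3.32 ± 0.22, limma adjusted p = 9.17e-05). Cdx1 rose from 0.036 to 2.5 RPKM (2.40 ± 0.29, limma adjusted p = 0.000989), and Wnt3 fell from 13.1 to 3.16 RPKM (-1.90 ± 0.21, limma adjusted p = 0.000622). These genes went both ways. In K754R EBs the mesoderm factor T fell from 63.5 to 10.5 RPKM (-2.54 ± 0.16, limma adjusted p = 0.00098), Fgf4 fell from 1.38 to 0.175 RPKM (-1.46 ± 0.28, limma adjusted p = 0.0244), the retinoic acid receptor Rarb rose from 1.8 to 5 RPKM (1.26 ± 0.23, limma adjusted p = 0.0204), and Evx1, next to the Hoxa cluster, fell from 7.56 to 2.88 RPKM (-1.23 ± 0.23, limma adjusted p = 0.0222). Between the edits, T was higher in K754M than in K754R (2.17 ± 0.16, limma adjusted p = 0.00209), and the cofactor Meis1 was lower (0.619 against 3.01 RPKM, -1.63 ± 0.26, limma adjusted p = 0.0221).

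The genes that flank the clusters were counted in the same way. Of the 11 flanking genes tested in Eed null EBs 3 rose and 2 fell. In Eed null mESCs 1 of 11 rose, and in K754R EBs 1 of 11 fell. Of 2 non-coding RNAs of the clusters tested in EBs, 1 rose and 1 fell in Eed null and neither was called in K754R. Only 7 RNAs of that list had a row under their symbols, and Hotair and Hottip were among those without. The 4 Trithorax-side activators tested, which act against Polycomb repression, had 3 rises and 0 falls in Eed null EBs. In Eed null mESCs they had 1 of each, and Ash2l fell from 217 to 96 RPKM (-1.17 ± 0.21, limma adjusted p = 0.023). Kmt2a, Kmt2b, Kat6a and Kat7 of the same list had no row under these symbols. Of 11 PRC2 subunits, 4 rose and 1 fell in Eed null EBs, 0 rose and 2 fell in K754R EBs, and in Eed null mESCs the 1 that fell was Eed (-2.30 ± 0.25, limma adjusted p = 0.00474). In CCE EloA null mESCs the 1 of 11 that fell was Suz12, another PRC2 core subunit (34.3 against 43.7 RPKM, -0.34 ± 0.04, limma adjusted p = 0.00972). Of 4 neural markers tested in CJ7 EBs, 3 rose in Eed null and 1 fell in K754R.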

How the data were processed

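RNA-seq of 28 libraries was deposited by the authors as RPKM values (reads scaled by gene length and library depth), in 1 table for stem cells and 1 for EBs. Per the submitters' processing notes CASAVA 1.7 and STAR were used with the mm9 build; for the counting program, its annotation and its strand setting, nothing is given in the sources used here. RPKM values were tested as log2(RPKM + 0.5) with limma 3.58.1 (R 4.3.3, empirical Bayes with trend) on genes of at least 0.25 RPKM in 2 libraries of the fit, with 1 fit per line and stage and Benjamini-Hochberg adjustment over all genes tested (called: adjusted p under 0.05). The script was tested on simulated data. Depth was estimated from the RPKM worth of 1 read (Python 3.11.15, pandas 2.3.3), and 39.4% to 45.7% of low values were near whole reads at the gene lengths used, so no count test was run.

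Samples were grouped by their titles. In CCE stem cells all 3 same-numbered pairs deviated together (r = 0.22 to 0.51 across genes). The numbers were taken as pairs there only in the alternative fit with a replicate block, and the main fit did not use them. No label states this pairing. Named with values are called Hox genes (up to the 10 largest differences per comparison), the 5 highest in wild type cells of each line and stage, and up to 4 called genes of other lists. The lists are Hox cofactors, upstream regulators, Trithorax-side activators, PRC2 subunits, cluster non-coding RNAs, flanking genes, and markers of stem cells, fibroblasts, mesoderm, neural cells, extraembryonic endoderm and trophoblast. Members and lists were chosen with earlier results of these data known. Alternatives were pseudocounts of 0.1 and 1, no filter, quantile normalization, 1 fit per stage, a replicate block and leaving out each library.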

Additional observations from a re-analysis of the deposited data

Results flagged for a closer look

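A few Hox genes lay on opposite sides of wild type in stem cells and EBs of the same genotype, with no overlap between the libraries of the groups at either stage; 4 such cases were tested at both stages. In Eed null cells Hoxc4 differed by -0.54 in mESCs and 0.98 in EBs, and Hoxc13 by -0.48 in mESCs and 1.76 in EBs, on the log2(RPKM + 0.5) scale; the EB differences were called by limma and the mESC differences were not. In K754M cells Hoxd9 differed by -0.36 in mESCs and 0.49 in EBs, and Hoxd13 by 0.82 in mESCs and -0.13 in EBs, none of them called. Hoxd13 in EBs rests on 3 and 2 reads in K754M and 7 and 6 reads in wild type. Hoxb1 and Hoxb3 in Eed null cells also lay above wild type in mESCs and below it in EBs, but were below the filter in mESCs, where Hoxb1 had 6 and 3 reads against 0 and 2, and Hoxb3 6 and 9 against 2 and 2. The difference between the stages was not tested for any of these genes, since the tables were normalised separately.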

How the results depend on the processing

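The count of called Hox genes was recomputed under each alternative. It did not change side or move by over 1.5 times in K754M against wild type (either stage) or in pair A against wild type under any alternative run, and no difference of a called gene reversed. In Eed null mESCs it was 8 with all libraries of the stage in 1 fit, against 4, and 0 in every fit without 1 library. In K754R mESCs it was 6 in the fit of the stage, and in EBs 5 for pair B against wild type and 9 for pair B against pair A. The fits per line and stage called 0 in each of these comparisons, and the replicate block is given below. In Eed null EBs the count was 24 with all libraries and lower in each fit without 1 library. It fell further when the filter was also applied anew without an Eed null library, because fewer Hox genes then passed (15). Applying the filter anew was an alternative chosen after seeing the data. The share of all genes called in these fits is not given here. In K754R EBs it ranged from 0 to 3 without 1 library, with or without the new filter. For K754M against K754R it was 0, instead of 1, with a pseudocount of 0.1, without the filter, after quantile normalization and without any 1 library; the cause was not tested.

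With the replicate number as a block, 7 Hox genes were called in Eed null mESCs (12.3% of all genes called), 1 in EloA null mESCs (12.4%), 3 in pair B against wild type (3.96%) and 10 in pair B against pair A (8.24%). Outside CCE mESCs the libraries share only a number (correlations of 0.01 to 0.43 over 2 numbers), so this pairing is not established. In CCE mESCs it was inferred from these data and is not stated by any label. In wild type CJ7 cells 19 of 37 Hox genes had under 10 reads in both mESC libraries (11.1 and 13.6 M reads) and 27 of 37 in both EB libraries (31.5 and 32 M reads), which limits the precision of their levels.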
